A study of Homo sapiens with 12 samples.

Results

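Messenger RNA of MET and of the insulin-like growth factor (IGF) axis was quantified by RNA-seq in CWR22Rv1 cells, an established cell line of human prostate carcinoma, with and without added MEIS1 and with HOXB13 targeted or not. The genes were taken by name and function, by a rule that uses no measured value. They are the receptors MET, IGF1R, INSR and IGF2R, the adaptors IRS1 and IRS2, and the binding proteins IGFBP2, IGFBP3, IGFBP4 and IGFBP5. Of these 10 genes, 8 are among the 13951 genes analyzed, and IGFBP4 and IGFBP5 were not analyzed here. The design addresses whether the response to added MEIS1 requires HOXB13, and decorin, a proteoglycan known to antagonize MET and IGF1R, is among its genes of interest.

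Each of the 4 groups has 3 libraries. Control cells express Cas9 and received no guide RNA. LV-MEIS1 cells carry MEIS1 in a lentiviral vector, and neither the labels nor the methods say whether they carry Cas9. HOXB13ko cells carry a transposon-borne Cas9 and received a guide RNA against HOXB13, and 6 clones, checked by western blot in the study, were recombined into 1 pool. HOXB13ko-LV-MEIS1 cells are that pool infected with the MEIS1 vector. All groups were kept in serum with puromycin, and RNA was taken 48 h after seeding. Each genotype is a single line or pool. Nothing in the labels says that the libraries of a group came from separate cultures, so p-values measure the spread between these libraries, which may be technical.

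Hepatocyte growth factor (HGF) binds the receptor tyrosine kinase MET, and IGF1 and IGF2 bind IGF1R. The insulin receptor INSR is the closest relative of IGF1R and forms hybrid receptors with it. IRS1 and IRS2 are docking proteins that link both receptors to PI3K, AKT and the RAS-ERK cascade. IGF2R has no kinase and carries IGF2 to lysosomes. The IGFBP proteins hold IGFs in the extracellular space, and IGFBP3 is the main carrier in blood. In prostate tissue much HGF and IGF comes from stromal cells, and epithelial cells respond through the receptors.

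Values are CPM, counts scaled to library size, as deposited. Depth estimated from the steps between low CPM values lay between 17200000 and 28700000 reads per library, so 3 reads equal 0.105 to 0.175 CPM, and all 8 genes were far above that. MEIS1 was 4.05 to 4.45 CPM in Control libraries, 45.8 to 49.6 CPM in LV-MEIS1, 3.42 to 3.65 CPM in HOXB13ko and 29.3 to 30.1 CPM in HOXB13ko-LV-MEIS1. The MEIS1 level was thus lower in the HOXB13ko-LV-MEIS1 libraries than in LV-MEIS1 by 0.66 (SE 0.07) on the log2 scale, with an eBayes adjusted p of 4.35e-06 in limma. HOXB13 mRNA went against its label, because it was 185, 215 and 187 CPM in Control and 347, 326 and 307 CPM in the libraries labelled HOXB13ko. It was 152, 150 and 151 CPM in LV-MEIS1, below every Control library, and 326, 361 and 375 CPM in HOXB13ko-LV-MEIS1. Below, HOXB13ko names libraries by their label only. A guide RNA can remove a protein without lowering its mRNA, and protein was not measured here. All 9 luminal prostate markers were listed, and their summed level in LV-MEIS1, 2448 to 2484 CPM, was below that of Control at 3289 to 3373 CPM. It was 3442 to 3468 CPM in HOXB13ko and 3451 to 3557 CPM in HOXB13ko-LV-MEIS1. No basal, endothelial or leukocyte marker was listed, and 4 of 7 fibroblast or smooth muscle markers summed to between 34.9 and 44.7 CPM over all groups. Within that sum, mean COL1A1 was 14.5 CPM in Control and 32.8 CPM in LV-MEIS1, while VIM was 13.2 and 3.88 CPM, ACTA2 8.88 and 5.62 CPM and PDGFRB 1.41 and 0.266 CPM. The part of these differences in the results below was not tested, and in bulk RNA fewer cells of a kind and less RNA per cell cannot be told apart.

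A gene was called when limma's treat method placed its change beyond 1.5-fold at an adjusted p under 0.05 over all genes. A change counted as different from 0 when limma's eBayes test against no change passed the same limit. Fold changes are differences of log2(CPM + 0.5), and ratios are ratios of mean CPM. Below, MEIS1 in Control cells stands for LV-MEIS1 against Control, and MEIS1 in the HOXB13ko pool for HOXB13ko-LV-MEIS1 against HOXB13ko. The first compares separate lines, whose Cas9 may differ, so an effect of MEIS1 cannot be told apart from other line differences. In LV-MEIS1 against Control, IGFBP3 rose 3.51-fold and IGF1R fell to 0.447 of its Control level. These were 2 of 8 members called, where 3.99% of all genes were called, 1.75% higher and 2.24% lower. By eBayes, 6 members differed beside 44.5% of all genes, 4 higher (23.2% of all genes) and 2 lower (21.3%). The libraries of these 6 did not overlap between the groups, 4 higher in all (26.3% of all genes) and 2 lower in all (25.1%). In HOXB13ko-LV-MEIS1 against HOXB13ko, 0 of 8 members were called by treat and 0 by eBayes. In that comparison treat called 0.00717% of all genes and eBayes 0.0502% (0.0215% higher and 0.0287% lower), and 2 of 8 members had an unadjusted eBayes p under 0.05, as had 14.8% of all genes. The median log2 fold change of the 8 members was 0.17 for MEIS1 in Control cells and -0.05 in the HOXB13ko pool, beside 0.01 for all genes in both.

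**Figure D1:**
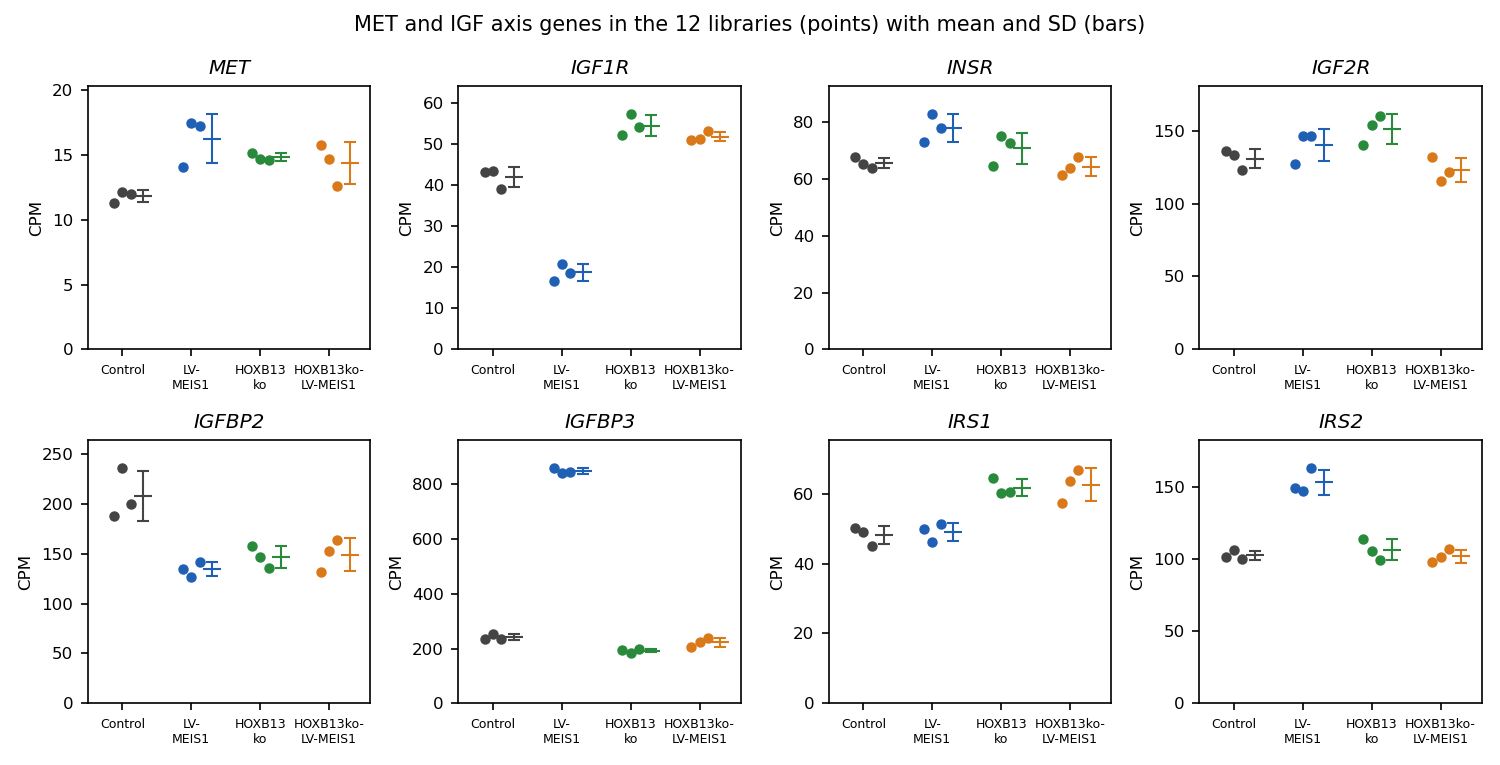
Level in CPM (vertical axes, from 0) of the 8 members in each of the 12 libraries (points) with the mean and SD of the 3 libraries of each group (bars). IGFBP3 lies at 840 to 858 CPM in LV-MEIS1 and at 185 to 253 CPM elsewhere, and IGF1R lies at 16.7 to 20.7 CPM in LV-MEIS1 and at 39.0 to 57.2 CPM elsewhere.

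IGF1R and IGFBP3, the called members, and HGF, the MET ligand described further below, are shown with the 250 bases before their RefSeq start on GRCh38.p14, because the study concerns 2 DNA-binding factors. For IGFBP3 and HGF the RefSeq start and the window lie inside the gene positions given below, which come from GENCODE. Distances to the start are to the RefSeq start. Capitals mark motif matches on either strand.
IGF1R, chr15:98648289-98648538, plus strand: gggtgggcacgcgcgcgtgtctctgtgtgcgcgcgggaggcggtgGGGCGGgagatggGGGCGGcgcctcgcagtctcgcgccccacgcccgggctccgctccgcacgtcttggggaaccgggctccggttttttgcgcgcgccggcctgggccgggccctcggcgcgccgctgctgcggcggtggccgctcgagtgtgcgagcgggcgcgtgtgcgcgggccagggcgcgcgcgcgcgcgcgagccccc
IGFBP3, chr7:45921273-45921522, minus strand: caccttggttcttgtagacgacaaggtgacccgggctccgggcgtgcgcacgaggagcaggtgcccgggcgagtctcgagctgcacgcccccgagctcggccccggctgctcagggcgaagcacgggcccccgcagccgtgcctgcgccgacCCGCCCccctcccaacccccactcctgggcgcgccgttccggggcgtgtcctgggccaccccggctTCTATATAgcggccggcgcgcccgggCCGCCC
HGF, chr7:81770048-81770297, minus strand: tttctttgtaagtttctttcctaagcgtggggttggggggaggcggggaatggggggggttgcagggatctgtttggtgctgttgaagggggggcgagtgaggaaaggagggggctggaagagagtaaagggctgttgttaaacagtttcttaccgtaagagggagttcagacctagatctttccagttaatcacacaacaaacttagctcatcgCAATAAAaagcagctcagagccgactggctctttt
The letters searched were TGACAG (the MEIS core), CAATAAA and TCGTAAA (HOXB13 types), GGGCGG (the GC box) and TATANA, in 300 bases from 250 before to 50 after each start. Of 35116 RefSeq promoters of that length, 15.8% hold TGACAG, 4% CAATAAA, 0.541% TCGTAAA, 45.0% GGGCGG and 19.0% TATANA. The IGF1R window holds GGGCGG at 205 and 192 bases before the start and no other match. The IGFBP3 window holds GGGCGG on the opposite strand at 98 and 6 bases and overlapping TATANA matches at 32 and 30 bases before the start. In the HGF window, CAATAAA lies 35 bases before the start. The windows of IGF1, the other ligand called below, are not shown and hold no match to any of these letters. TGACAG was found in a window of IGFBP2 and of IGF2R, and in no window of the other 8 members. These letters describe the windows only, and no binding data were used.

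IGF1R, the receptor tyrosine kinase for IGF1 and IGF2, lies at GRCh38 chromosome 15, 98648539 to 98964530 (ENSG00000140443). Its level was 43.2, 43.4 and 39.0 CPM in Control and 16.7, 20.7 and 18.7 CPM in LV-MEIS1. It was 52.1, 57.2 and 54.0 CPM in HOXB13ko and 51.1, 51.1 and 53.1 CPM in HOXB13ko-LV-MEIS1. The LV-MEIS1 libraries lay below all others, and the 2 groups labelled HOXB13ko overlapped each other and lay above Control. In LV-MEIS1 against Control, IGF1R was lower by 1.14 on the log2 scale (SE 0.07, limma treat adjusted p = 7.71e-05). With MEIS1 in the HOXB13ko pool the log2 fold change was -0.07 (95% interval -0.23 to 0.09). The difference of these MEIS1 effects was -1.07 (SE 0.11, treat adjusted p = 0.00948), in a contrast where 2 of 8 members and 2.93% of all genes were called (1.31% higher and 1.62% lower). By eBayes that difference was above 0 for 5 members and below 0 for 2, beside 34.2% of all genes (18% and 16.2%). The difference of the MEIS1 effects uses the same Control and LV-MEIS1 libraries as the first comparison and is not separate evidence. Between the lines that carry the MEIS1 vector, IGF1R was 2.77-fold higher in HOXB13ko-LV-MEIS1 (log2 fold change 1.45, SE 0.07, treat adjusted p = 4.43e-07). Here too 2 of 8 members were called, beside 6.71% of all genes (3.29% higher and 3.42% lower). By eBayes 2 were higher and 4 lower, beside 50.1% of all genes (24% and 26.1%), and 2 lay higher in all libraries (28.2%) and 3 lower in all (30.1%).

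IGF1R sits on distal 15q among genes most of which also had lower values in LV-MEIS1. Of the 20 nearest genes averaging 5 CPM or more, 18 had a log2 fold change below 0 against Control, and their median was -0.48. The IGF1R value minus that median was -0.66. Within 10 Mb of IGF1R, 43 of 46 such genes lay below 0, and 5 lay below IGF1R. In HOXB13ko-LV-MEIS1 against LV-MEIS1 the same 20 genes had a median of 0.70, with 18 above 0, and the 10 nearest had 0.95. With MEIS1 in the HOXB13ko pool their median was 0.01 with 9 below 0. In HOXB13ko against Control, where IGF1R had 0.38, their median was 0.20 with 18 above 0. For the difference of the MEIS1 effects their median was -0.54 with 18 below 0, beside -1.07 for IGF1R. The part of the neighbors' shift in the IGF1R value was not tested. The log2 fold change of IGFBP3 was 1.81, and the median of its 20 nearest genes on chromosome 7 was -0.18. The adjacent IGFBP1 averaged under 5 CPM and is not among those 20, and its log2 fold change was 1.24. For MET, also on chromosome 7, that median was 0.24, and for IGF2R on chromosome 6 it was 0.41 with all 20 neighbors above 0 (0.23 over the 10 nearest).

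**Figure D2:**
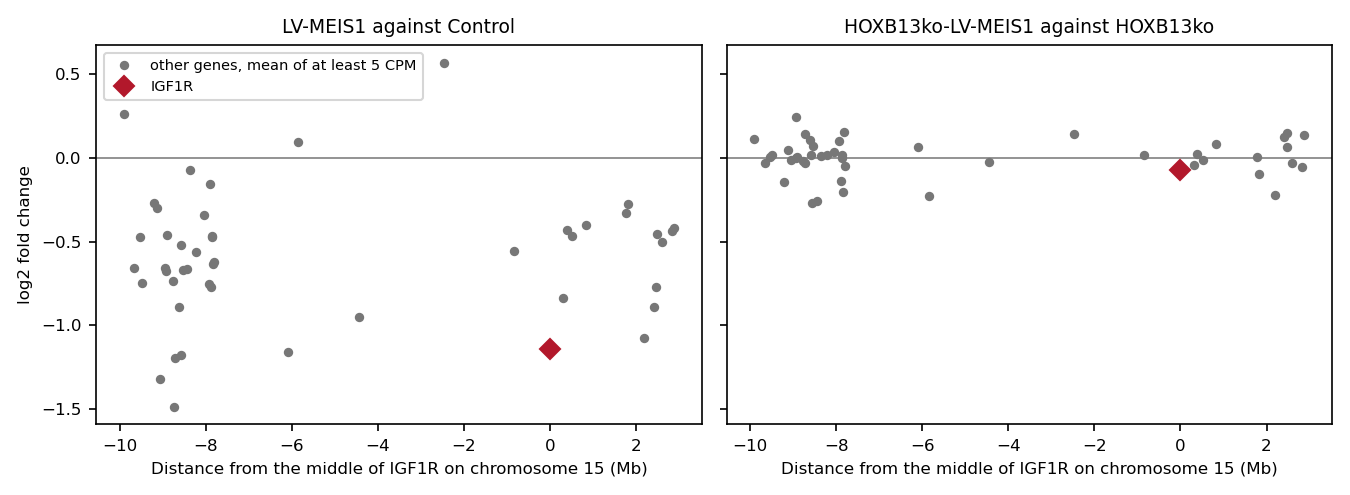
Log2 fold change (vertical axis, on the log2(CPM + 0.5) scale) of IGF1R (diamond) and of the 46 genes averaging 5 CPM or more within 10 Mb of it (points) against distance in Mb. The left panel shows LV-MEIS1 against Control and the right panel HOXB13ko-LV-MEIS1 against HOXB13ko. At left 43 of 46 genes lie below 0 and IGF1R lies at -1.14, and at right 20 lie below 0 and IGF1R lies at -0.07.

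MET, the HGF receptor, lies on chromosome 7, 116672196 to 116798377 (ENSG00000105976). It was 11.3, 12.2 and 12 CPM in Control and 14.1, 17.4 and 17.3 CPM in LV-MEIS1. The HOXB13ko libraries had 15.2, 14.7 and 14.6 CPM and the HOXB13ko-LV-MEIS1 libraries 15.8, 14.7 and 12.6 CPM. Control lay below the other 3 groups, which overlapped each other. MET was not called in any comparison. By eBayes it was 1.38-fold higher in LV-MEIS1 (log2 fold change 0.44, SE 0.10, limma adjusted p = 0.0024) and 1.25-fold higher in HOXB13ko (0.32, SE 0.10, adjusted p = 0.0244). For MEIS1 in the HOXB13ko pool its log2 fold change was -0.05 (95% interval -0.26 to 0.16), and the difference of the MEIS1 effects was 0.49 (eBayes adjusted p = 0.0153).

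INSR, the insulin receptor (chromosome 19, 7112255 to 7294414), was 67.7, 65.2 and 64.0 CPM in Control and 73.2, 82.9 and 78.0 CPM in LV-MEIS1. It was 64.8, 75.2 and 72.6 CPM in HOXB13ko and 61.3, 63.9 and 67.9 CPM in HOXB13ko-LV-MEIS1. LV-MEIS1 lay above Control and above HOXB13ko-LV-MEIS1 in every library, and each neighboring pair in the order of means overlapped. The log2 fold change of INSR with MEIS1 in Control cells was 0.25 (eBayes adjusted p = 0.00752 in limma), opposite in sign to that of IGF1R. IGF2R, which clears IGF2, was 136, 133 and 123 CPM in Control, 127, 146 and 147 CPM in LV-MEIS1, 140, 154 and 160 CPM in HOXB13ko and 132, 115 and 121 CPM in HOXB13ko-LV-MEIS1. Its groups overlapped except that HOXB13ko lay above Control and above HOXB13ko-LV-MEIS1. IGF2R was higher in HOXB13ko than in Control by 0.21 (eBayes adjusted p = 0.0379), and neither gene was called in any comparison. Part of the IGF2R exons, 2.53% of their bases, overlaps a pseudogene on the same strand.

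IGFBP3 (ENSG00000146674, chromosome 7, 45912245 to 45921874) showed the largest change of the set. It was 237, 253 and 236 CPM in Control and 858, 840 and 845 CPM in LV-MEIS1. The HOXB13ko libraries had 194, 185 and 197 CPM and the HOXB13ko-LV-MEIS1 libraries 205, 224 and 237 CPM. LV-MEIS1 stood above every other library, Control and HOXB13ko-LV-MEIS1 overlapped, and HOXB13ko was lowest. With MEIS1 in Control cells IGFBP3 rose by 1.81 on the log2 scale (SE 0.05, limma treat adjusted p = 5.16e-10). In the HOXB13ko pool the log2 fold change was 0.21 (95% interval 0.09 to 0.32, eBayes adjusted p = 0.144), with all HOXB13ko-LV-MEIS1 libraries above all HOXB13ko libraries, as in 10.6% of all genes. The difference of the MEIS1 effects was 1.60 (SE 0.08, treat adjusted p = 3.65e-07). Between the lines with the MEIS1 vector, IGFBP3 was 3.81-fold lower in HOXB13ko-LV-MEIS1 (log2 fold change -1.93, SE 0.05, treat adjusted p = 8.35e-11).

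IGFBP2, another IGF carrier (chromosome 2, 216632828 to 216664436), moved the other way. It was 187, 236 and 200 CPM in Control and 135, 127 and 142 CPM in LV-MEIS1. It was 158, 147 and 136 CPM in HOXB13ko and 131, 152 and 163 CPM in HOXB13ko-LV-MEIS1. Control lay above all other libraries, and the other 3 groups overlapped. By eBayes IGFBP2 was lower in LV-MEIS1 by a log2 fold change of -0.62 (SE 0.09, limma adjusted p = 7.63e-05) and lower in HOXB13ko by -0.50 (SE 0.09, adjusted p = 0.00101), and it was not called by treat. IGFBP1, which lies beside IGFBP3 on chromosome 7, was 1.23 to 2.09 CPM in the Control libraries, 4.63 to 4.93 CPM in LV-MEIS1, 1.21 to 2.3 CPM in HOXB13ko and 2.25 to 2.99 CPM in HOXB13ko-LV-MEIS1. Its log2 fold change with MEIS1 in Control cells was 1.24 (treat adjusted p = 0.0571, eBayes adjusted p = 0.000153). IGFALS, whose protein joins the complex of IGF and IGFBP3, was 0.455 to 1.60 CPM over all libraries and was not called.

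The adaptors differed in pattern. IRS2 (chromosome 13, 109752695 to 109786583) was 102, 106 and 100.3 CPM in Control and 150, 147 and 163 CPM in LV-MEIS1. It was 114, 105 and 99.7 CPM in HOXB13ko and 97.9, 101 and 107 CPM in HOXB13ko-LV-MEIS1. LV-MEIS1 lay above every other library and the other 3 groups overlapped. IRS2 was higher with MEIS1 in Control cells by 0.57 (SE 0.06, eBayes adjusted p = 2.95e-06 in limma), just under the 1.5-fold limit of treat at a ratio of 1.49, and the difference of the MEIS1 effects was 0.63 (SE 0.08, eBayes adjusted p = 6.78e-05).

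IRS1 (chromosome 2, 226731312 to 226799820) was 50.1, 49.1 and 45.2 CPM in Control and 49.8, 46.3 and 51.3 CPM in LV-MEIS1. It was 64.7, 60.1 and 60.5 CPM in HOXB13ko and 57.4, 63.6 and 66.7 CPM in HOXB13ko-LV-MEIS1. The pair of groups labelled HOXB13ko lay above the other pair, and groups within each pair overlapped. Against Control, IRS1 was 1.28-fold higher in HOXB13ko (log2 fold change 0.36, SE 0.07, eBayes adjusted p = 0.00124). With MEIS1 its log2 fold change was 0.03 (95% interval -0.11 to 0.17) in Control cells and 0.02 (-0.13 to 0.16) in the pool. In HOXB13ko against Control as a whole, 0 of 8 members were called by treat, beside 1.41% of all genes (0.652% higher and 0.76% lower), and 0 had an unadjusted treat p under 0.05. By eBayes 6 differed beside 32.9% of all genes, with MET, IGF1R, IGF2R and IRS1 higher (16.5% of all genes) and IGFBP2 and IGFBP3 lower (16.4%). The same 4 lay higher in all libraries (21.8%) and the same 2 lower in all (23.1%).

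**Figure D3:**
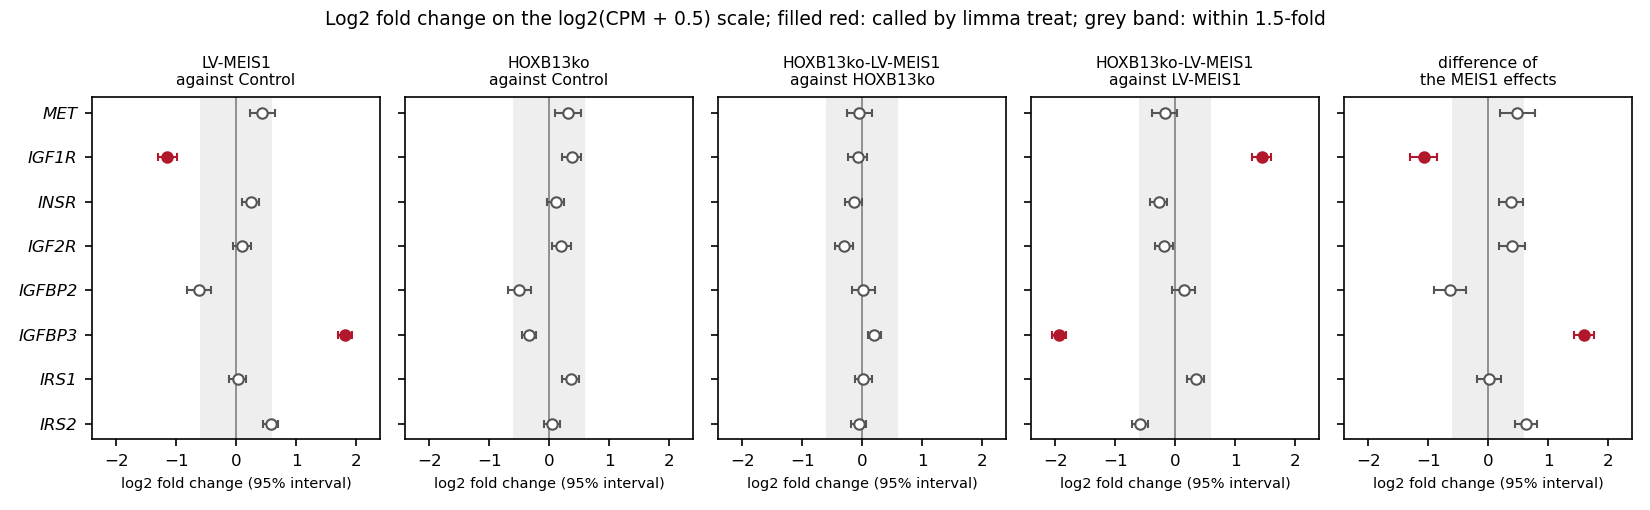
Log2 fold change of the 8 members with 95% intervals in 4 comparisons between groups and in the difference of the MEIS1 effects, on the log2(CPM + 0.5) scale, with the zone within 1.5-fold in grey and calls by limma treat in red. IGF1R and IGFBP3 are called in LV-MEIS1 against Control, between the lines with the MEIS1 vector and in the difference. In HOXB13ko-LV-MEIS1 against HOXB13ko the values lie between -0.30 and 0.21.

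Levels of different genes were compared per kilobase of exon. IGFBP3 was 52.9 ± 2.10 CPM per kilobase (SD, n = 3) in Control and 186 ± 2.03 in LV-MEIS1, and IGFBP2 was 43.8 ± 5.27 and 28.4 ± 1.58. IRS2 followed with 12.6 ± 0.372 in Control and 18.8 ± 1.04 in LV-MEIS1. INSR was 6.06 ± 0.173 and IGF2R 5.79 ± 0.298 in Control. IRS1 was 4.80 ± 0.261, IGF1R 3.0 ± 0.177 and MET 1.64 ± 0.0634 in Control. In LV-MEIS1, IGF1R was 1.34 ± 0.141 CPM per kilobase and MET 2.25 ± 0.262, so their order on this scale was the reverse of that in Control. The exons counted are those of all annotated transcripts. Per kilobase of the longest transcript, IGF2R was 9.19 and INSR 6.94 in Control, and IGFBP3 was 91.8.

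The ligands of both receptors were themselves expressed and changed. HGF (chromosome 7, 81699010 to 81770438) was 40.1, 31.2 and 41.3 CPM in Control and 68.6, 83.0 and 71.4 CPM in LV-MEIS1. It was 27.3, 30.2 and 32.8 CPM in HOXB13ko and 26.2, 24.6 and 24.6 CPM in HOXB13ko-LV-MEIS1. LV-MEIS1 lay above all others and Control overlapped HOXB13ko. HGF rose by 0.98 with MEIS1 in Control cells (SE 0.10, limma treat adjusted p = 0.0233), a call that was lost without Control replicate 2 (log2 fold change 0.86), LV-MEIS1 replicate 2 (0.90) or LV-MEIS1 replicate 3 (1.01). Its log2 fold change in the HOXB13ko pool was -0.25, and the difference of the MEIS1 effects was 1.23 (SE 0.15, treat adjusted p = 0.0123).

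IGF1 (chromosome 12, 102395874 to 102481744) was 18.1, 15.3 and 15.7 CPM in Control and 35.7, 38.0 and 34.9 CPM in LV-MEIS1. It was 2.93, 3.07 and 3.34 CPM in HOXB13ko and 2.32, 2.59 and 3.11 CPM in HOXB13ko-LV-MEIS1. LV-MEIS1 lay above Control, and Control lay above the overlapping groups labelled HOXB13ko. IGF1 rose 2.21-fold with MEIS1 in Control cells (log2 fold change 1.13, SE 0.11, limma treat adjusted p = 0.00316). It was 5.25-fold lower in HOXB13ko than in Control (log2 fold change -2.22, SE 0.11, treat adjusted p = 1.58e-07). It was 13.5-fold lower in HOXB13ko-LV-MEIS1 than in LV-MEIS1 (log2 fold change -3.54, SE 0.11, treat adjusted p = 2.79e-11). HELLPAR, a noncoding gene on the opposite strand, covers 82.5% of the IGF1 exon bases and is not among the listed genes, and the read assignment did not use strand. IGF2 and INS were not analyzed here.

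DCN, which encodes decorin, was 2.46, 2.99 and 1.83 CPM in Control and 28.3, 28.2 and 26.5 CPM in LV-MEIS1. It was 1.10, 0.947 and 0.899 CPM in HOXB13ko and 0.930, 1.22 and 0.873 CPM in HOXB13ko-LV-MEIS1. Only LV-MEIS1 libraries were above 3 CPM. DCN rose by 3.28 on the log2 scale with MEIS1 in Control cells (SE 0.15, limma treat adjusted p = 5.58e-09), and its log2 fold change in the HOXB13ko pool was 0.02 (SE 0.15). Of decorin's receptors, IGF1R mRNA fell and MET mRNA was 1.38-fold higher in the same libraries.

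**Figure D4:**
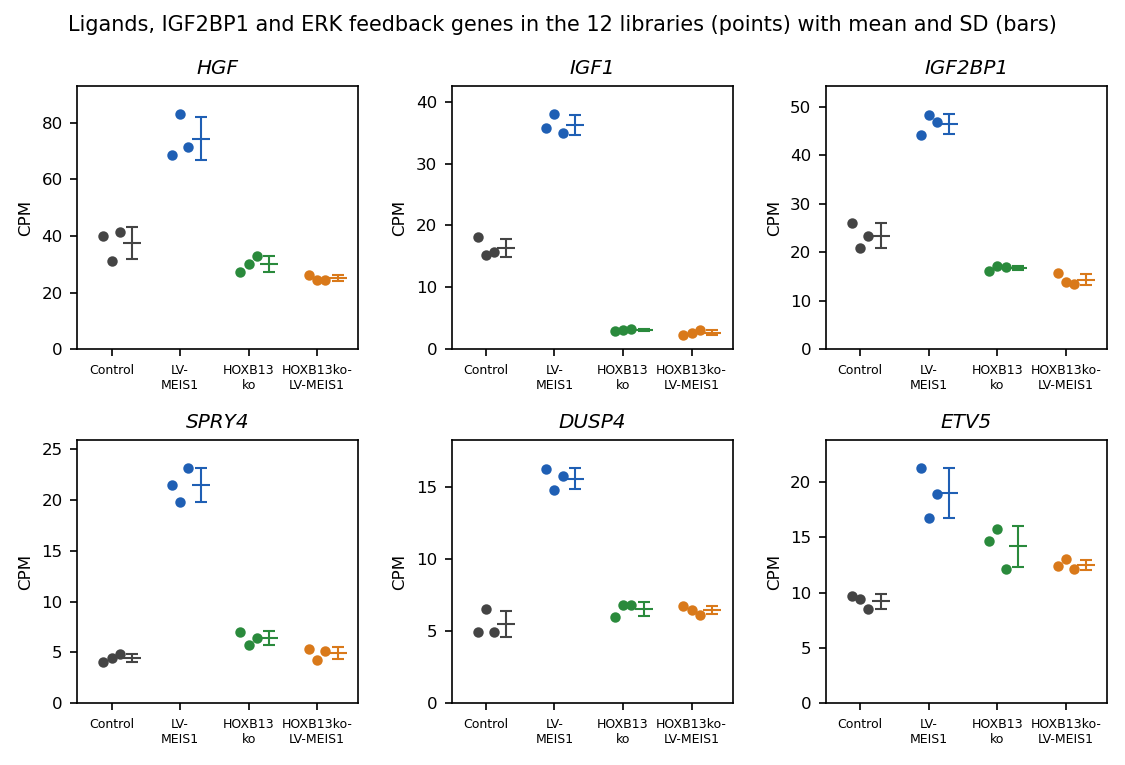
Level in CPM (vertical axes, from 0) of the ligands HGF and IGF1, of IGF2BP1 and of the ERK feedback genes SPRY4 and DUSP4 and the ERK target ETV5 in each of the 12 libraries (points), with the mean and SD of each group of 3 (bars). LV-MEIS1 lies above the other groups for all 6 genes, and IGF1 lies at 2.32 to 3.34 CPM in both groups labelled HOXB13ko against 15.3 to 18.1 CPM in Control.

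A list of 88 genes of the HGF, MET and IGF pathways held 73 listed genes, 65 of them besides the 8 members. With MEIS1 in Control cells, 7 of the 65 were called higher and 0 lower, beside 1.75% and 2.24% of all genes, and their median log2 fold change was 0.15 against 0.01 for all genes. By eBayes 28 were higher and 10 lower, beside 23.2% and 21.3% of all genes. The 7 were the ligands HGF and IGF1, decorin, the IGF2 mRNA-binding protein IGF2BP1, and 3 genes of the RAS-ERK branch. The study had already reported decorin as strongly raised in these libraries, so its place in these counts was known beforehand. The list itself was chosen with earlier results of these data known. With MEIS1 in the HOXB13ko pool 0 of 65 were called by treat or eBayes, 12 had an unadjusted eBayes p under 0.05 (14.8% of all genes had), and the median was 0.01. In HOXB13ko against Control, 1 was called, IGF1, which was lower, beside 0.652% of all genes called higher and 0.76% lower. In HOXB13ko-LV-MEIS1 against LV-MEIS1, 1 was called higher and 9 lower, beside 3.29% and 3.42% of all genes. The difference of the MEIS1 effects was called for 8, all positive, beside 1.31% of all genes.

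In the RAS-ERK branch, 3 of 17 listed genes were called higher with MEIS1 in Control cells, beside 1.75% of all genes, and by eBayes 7 were higher and 3 lower, beside 23.2% and 21.3%. SPRY4, a feedback inhibitor of receptor signaling, was 4.07 to 4.86 CPM in Control and rose to 19.7 to 23.1 CPM with MEIS1 (log2 fold change 2.14, SE 0.11, limma treat adjusted p = 1.1e-07). DUSP4, a MAP kinase phosphatase, was 4.94 to 6.53 CPM and rose to 14.8 to 16.2 CPM (log2 fold change 1.44, SE 0.11, treat adjusted p = 6.02e-05). ETV5, an ERK-responsive transcription factor, was 8.48 to 9.71 CPM and rose to 16.8 to 21.3 CPM (log2 fold change 1.00, SE 0.11, treat adjusted p = 0.0229). That call was lost without Control replicate 3 (0.94), LV-MEIS1 replicate 1 (0.92) or LV-MEIS1 replicate 3 (1.00). DGKG on the same strand shares 2.84% of the ETV5 exon bases. In the HOXB13ko pool the log2 fold changes with MEIS1 were -0.34 for SPRY4, -0.01 for DUSP4 and -0.17 for ETV5. The related DUSP6 and ETV4 were higher by eBayes alone (0.53 and 0.63), and for SPRY1 and SPRY2 the values were 0.18 and 0.15. The kinase gene MAP2K2 was lower by eBayes alone (-0.73, limma adjusted p = 9.21e-06).

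In the PI3K-AKT branch 0 of 24 listed genes were called with MEIS1 in Control cells, beside 3.99% of all genes. By eBayes 10 were higher and 4 lower, beside 23.2% and 21.3% of all genes, and the median log2 fold change was 0.14. INPP4B, a phosphatase that opposes PI3K signaling, was 22.5 to 28.8 CPM in the Control libraries, 40.3 to 47.3 CPM in LV-MEIS1, 21.2 to 22.6 CPM in HOXB13ko and 15.6 to 19.2 CPM in HOXB13ko-LV-MEIS1. Its difference of the MEIS1 effects was 1.14 (SE 0.14, limma treat adjusted p = 0.0277), a call lost without any of 7 libraries, as it was for the ETV5 difference without any of 8, and it was 2.49-fold lower in HOXB13ko-LV-MEIS1 than in LV-MEIS1 (treat adjusted p = 8.25e-05). PIK3CA, PIK3R1 and FOXO3 were higher in LV-MEIS1 by eBayes with log2 fold changes of 0.38, 0.49 and 0.28. The 4 lower by eBayes were EIF4EBP1, a repressor of translation (-0.82, limma adjusted p = 5.25e-06), the kinase gene AKT2 (-0.29), PIK3R2 (-0.24) and RPTOR (-0.24). AKT1 had -0.09 (eBayes adjusted p = 0.303).

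Among the remaining called genes, IGF2BP1 was 20.8 to 26.0 CPM in the Control libraries, 44.3 to 48.3 CPM in LV-MEIS1, 16.2 to 17.1 CPM in HOXB13ko and 13.4 to 15.7 CPM in HOXB13ko-LV-MEIS1. It rose with MEIS1 in Control cells (log2 fold change 0.98, SE 0.08, limma treat adjusted p = 0.00608), while IGF2BP2 and IGF2BP3 had eBayes adjusted p of 0.982 and 0.733. Between the lines with the MEIS1 vector, MST1R, the MET relative, was 2.56-fold lower in HOXB13ko-LV-MEIS1 (12.1 to 14.9 against 4.26 to 6.04 CPM, treat adjusted p = 0.000605). GAB2, a docking protein of receptor kinases, was 2.07-fold lower there (24.8 to 27.3 against 10.8 to 14.4 CPM, treat adjusted p = 0.00327). STC2, an inhibitor of the proteases that cleave IGFBPs, was the single gene of the list besides IGF1R called higher there, at 2.01-fold (14.8 to 16.7 against 29.5 to 34.0 CPM, treat adjusted p = 0.00121).

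**Figure D5:**
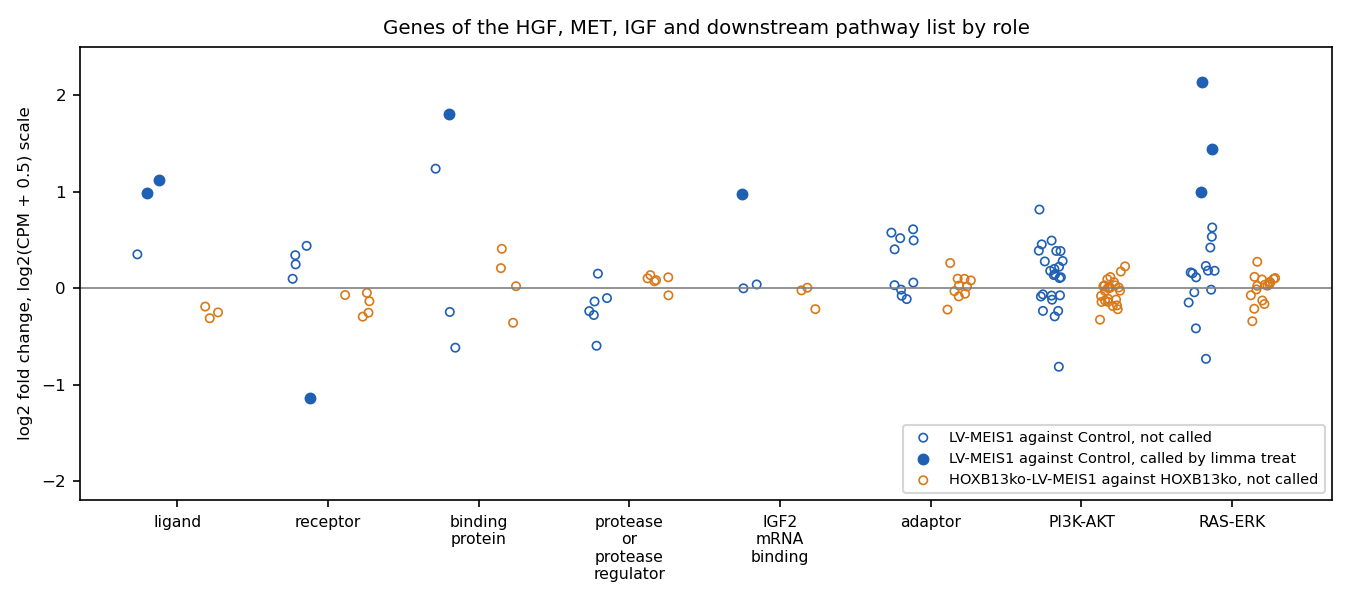
Log2 fold change (log2(CPM + 0.5) scale) of the listed pathway genes other than decorin by role. Blue is LV-MEIS1 against Control (filled where limma treat called the gene) and orange is HOXB13ko-LV-MEIS1 against HOXB13ko. Of 73 listed genes including decorin, 9 were called in the first comparison and 0 in the second.

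Genes with a pattern most like those of the called members were found by Pearson correlation of log2 values over the 12 libraries, among 11542 genes averaging 5 CPM or more. For IGF1R these were ABHD2 (r = 0.993) and ZNF592 (0.992), both on chromosome 15, and JAK1 (0.991) on chromosome 1. For IGFBP3 they were NUDT4 (0.997) on chromosome 12, APLP2 (0.996) on chromosome 11 and PRR15 (0.995) on chromosome 7. The points are 12 libraries in 4 groups, so libraries of a group are not independent conditions, and r is given as a description.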

How the data were processed

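RNA-seq of polyadenylated RNA from 12 libraries was used. Per the labels and methods, the authors trimmed single-end reads with Trimmomatic 0.38, assigned them with kallisto 0.43.1 to Ensembl transcripts of GRCh38.p12 without strand, summed estimated counts to genes, removed genes with few counts and normalized the libraries in edgeR 3.22.2. The deposited values are CPM by gene symbol. Each table has 13993 rows, and 42 exact repeats were left out. Between 47.9% and 60.9% of values under 1 CPM lay within 0.1 read of a whole multiple of 1 read, so whole reads could not be had and count models were not used.

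Linear models with 1 mean per group and 8 residual degrees of freedom were fitted in limma 3.58.1 (R 4.3.3) on log2(CPM + 0.5), with treat against a fold change of 1.5 and eBayes against no change, trended priors and Benjamini-Hochberg adjustment over all 13951 genes. Of the pathway list, 2 genes are not reported here and were left out of its counts. The genes, lists, tests and alternatives were chosen with earlier results of these data known. The named genes were the members, MEIS1, HOXB13, DCN, listed pathway genes called in any contrast, the other IGFBP genes and the 3 genes most like each called member, and other pathway genes with values were chosen after these were seen. Positions came from GENCODE v44 (GRCh38), which held 97.1% of the symbols (13553 genes, 453 through an older symbol), and promoters from RefSeq (GRCh38.p14) for all 10 genes. The test was tested on simulated data. The alternatives were pseudocounts of 0.1 and 1, a mean of at least 1 CPM, 3 other scalings, eBayes, a fit of the compared groups only, a replicate block, leaving out each library, the longest transcript and 10 nearest genes. Depth intervals cover counting error only.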

Additional observations from a re-analysis of the deposited data

Results flagged for a closer look

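The difference of the MEIS1 effects is the log2 fold change of LV-MEIS1 against Control minus that of HOXB13ko-LV-MEIS1 against HOXB13ko. By limma's treat test it was called for 10 genes named above, of 73 listed pathway genes, 9 higher and 1 lower. Of all genes, 1.31% were called higher and 1.62% lower. The ETV5 and INPP4B calls were lost when single libraries were left out, as given below. All these contrasts share the same libraries, and the MEIS1 level also differed between the lines with the vector, as given above.

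Among the members, the difference was -1.07 for IGF1R (lower with MEIS1 in 3 of 3 LV-MEIS1 libraries than in any Control library) and 1.60 for IGFBP3 (higher in 3 of 3). The 20 genes nearest IGF1R had a median difference of -0.54, with 18 below 0. For the ligands the difference was 1.23 for HGF and 1.32 for IGF1, and for decorin (DCN) it was 3.26. In the RAS-ERK branch it was 1.45 for DUSP4, 2.48 for SPRY4 and 1.17 for ETV5. For the phosphatase INPP4B it was 1.14 and for the mRNA-binding protein IGF2BP1 it was 1.20. In each of these 10 genes the 3 LV-MEIS1 libraries did not overlap the 3 Control libraries, as for 26.3% of all genes higher in all and 25.1% lower in all. The same libraries enter the difference by which the genes were picked, so this separation is not separate evidence.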

How the results depend on the processing

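Under up to 9 alternative settings and with each of the 12 libraries left out in turn, the count of called members stayed at 2 for MEIS1 in Control cells, 0 for HOXB13ko against Control, 0 for MEIS1 in the HOXB13ko pool, 2 for HOXB13ko-LV-MEIS1 against LV-MEIS1 and 2 for the difference of the MEIS1 effects, except that eBayes, which has no fold limit, called 6, 6, 0, 6 and 7. The replicate numbers do not pair the libraries: over 18 pairs with the same number the correlation of deviations ran from -0.30 to 0.23, 2 were over 0.1 and 0 libraries correlated best with their own number. Some pairs with different numbers went further. LV-MEIS1 replicate 2 had -0.37 with HOXB13ko replicate 1 and 0.37 with HOXB13ko replicate 3. A block on replicate number does not take up such deviations, and their source was not tested. With a replicate block the members called were again 2, 0, 0, 2 and 2, and in LV-MEIS1 against Control the genes called over the whole table went from 244 higher and 313 lower to 231 and 291. Other scalings moved the median of all genes by at most 0.039.

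In HOXB13ko-LV-MEIS1 against HOXB13ko, values near 0 changed sign: scaled to an equal sum, IRS1 was -0.00571 and IGFBP2 -0.00282, and by quantile normalization IGFBP2 was -0.00472. Leaving out 1 library gave ranges that cross 0 for IRS1 with MEIS1 in Control cells (-0.014 to 0.072), in the pool (-0.031 to 0.077) and in the difference (-0.047 to 0.061), for IRS2 (-0.0029 to 0.095) and IGFBP1 (-0.16 to 0.22) in HOXB13ko against Control, and for MET (-0.12 to 0.038) and IGFBP2 (-0.0495 to 0.11) in the pool. The positive ETV5 difference was lost as a call without Control replicate 3, LV-MEIS1 replicates 1 or 3, HOXB13ko replicates 1 or 2, or any HOXB13ko-LV-MEIS1 library (range 1.08 to 1.27), and by quantile normalization (1.10). The INPP4B difference was lost without Control replicates 2 or 3, LV-MEIS1 replicates 2 or 3, HOXB13ko replicates 1 or 3, or HOXB13ko-LV-MEIS1 replicate 3 (range 1.06 to 1.25). IGFBP1 with MEIS1 in Control cells became a call without Control replicate 1 or HOXB13ko replicates 2 or 3 (range 1.06 to 1.35), with a pseudocount of 0.1 (1.42) and in a fit of the compared groups (1.24). The causes were not tested. Per kilobase of the longest transcript, IGFBP3 was 322 CPM in LV-MEIS1. Values under 3 reads carry little information.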
